A study of Mus musculus with 2 samples.

Results

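The nuclear genes of respiratory complexes II to V were examined for YY1 peaks in mature adipocytes of the mouse inguinal fat pad (iWAT, a subcutaneous depot). Members were the protein-coding genes of the GRCm38.p6 RefSeq gene table whose symbol starts with Sdh (subunits a to d, or af), Uqcr, Cox and a number, or Atp5, plus Cyc1 and Cycs. This gave 62 of 21883 nuclear protein-coding genes, with 8 in complex II, 9 in complex III, 27 in complex IV, 17 in complex V and the cytochrome c gene Cycs. YY1 is a zinc finger transcription factor that activates some genes and represses others. The rule uses symbols and no measured value. The 2 libraries came from male wild-type C57 mice of 8 to 10 weeks, kept at room temperature or exposed to cold for 7 days. No difference has a replicate check, since each condition is a single library, and no label says whether animals were pooled. The labels name ChIP-seq, and the protocol describes CUT&Tag, in which a transposase bound to the antibody cuts nearby DNA. The deposited data are a peak list per library, with 165 entries at room temperature and 1259 after cold, and absolute depths are unknown. The entries are named with a 30 at room temperature and with a 4 after cold, and no label explains these numbers, so the baseline is called room temperature as labelled. Of 8 adipocyte marker genes 0 had a peak in either list. After cold 6.43% of all protein-coding genes had one, as did 1 of 4 endothelial markers, Pecam1, and 0 of 4 markers each of macrophages and of preadipocytes or fibroblasts. Binding at a marker does not measure its expression, so the labelled cell type could not be checked.

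The respiratory chain sits in the inner mitochondrial membrane. Complex II (succinate dehydrogenase) passes electrons from succinate to ubiquinone, complex III passes them to cytochrome c, and complex IV (cytochrome c oxidase) passes them to oxygen. Complexes III and IV pump protons, and complex V (ATP synthase) uses the returning protons to make ATP. In thermogenic adipocytes the uncoupling protein lets protons return without making ATP, so that the chain releases heat.

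A gene was counted as having a peak when a summit lay inside it or within 1 kb of an end. After cold 16 of the 62 genes had one (25.8%, exact 95% interval 15.5 to 38.5), where 6.43% of all nuclear protein-coding genes did. At room temperature 2 genes had one (3.23%, 0.393 to 11.2), Uqcrh and Atp5e, where 0.864% of all genes did. Intervals of shares treat genes as separate draws and cover counting error only, and genes of a complex are not replicates. Both room temperature genes also had a cold peak, so 2 of the 16 genes with a cold peak were in both lists, beside 13.2% of all genes with a cold peak. The other 14 were listed after cold only. The cold list is longer, and among its 165 strongest entries, the length of the room temperature list, 2 members had a peak, Uqcrh and Cox20, where 0.905% of all genes did. How far expression of these genes, or open chromatin at their starts, goes with the count was not tested.

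The YY1 motif is known for the letters AAGATGGC, which hold the core ATGG. AANATGGC was searched on both strands of the RefSeq promoters, which run from 250 bases before to 50 after an annotated start. The table matched 48 of the 62 genes, and 8 of the 48 held the motif (16.7%), beside 7.46% of the 17491 protein-coding genes with a promoter in the table. All 8 matches are shown because they let the peaks be set against sequence, 5′ to 3′ on the gene's strand, with the motif in capitals. The first 6 belong to genes with a cold peak, the last 2 to genes without one.
Cox10, chr11:64079433-64079462, minus strand: ggcgggctagcAAGATGGCggcgcccagga
Cox20, chr1:178319067-178319096, plus strand: gaacgctccctAAGATGGCcgccgccgcgc
Atp5j2, chr5:145191500-145191529, minus strand: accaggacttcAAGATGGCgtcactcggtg
Atp5j, chr16:84835046-84835075, minus strand: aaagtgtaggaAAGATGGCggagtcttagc
Atp5pb, chr3:105959248-105959277, minus strand: atgtgcgagcgGCCATCTTgctcctgcccc
Atp5b, chr10:128083313-128083342, plus strand: acccggattccGCCATGTTgagtcttgtgg
Sdhaf2, chr19:10525305-10525334, minus strand: ccgttaccgggAATATGGCggcggccgcgg
Cox7b, chrX:106015724-106015749, plus strand: ccctgctgaaaGCCATTTTgtttttc
The match reads forward in 5 genes and in reverse in Atp5pb, Atp5b and Cox7b. The 4 forward matches under a peak share the letters AAGATGGC, while Sdhaf2 has AATATGGC.

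Complex V had the most genes with a peak after cold, 8 of 17 (47.1%, 23 to 72.2). Complex II had 3 of 8 (37.5%, 8.52 to 75.5), complex III 2 of 9 (22.2%, 2.81 to 60) and complex IV 3 of 27 (11.1%, 2.35 to 29.2). Cycs, the gene of the mobile carrier between complexes III and IV, had none in either list. The interval of complex V overlaps those of complexes II, III and IV, and no test was made between complexes. The median gene length was 7131 bp in complex V and 6271 bp in complex IV, with 19706 bp in complex II and 4775 bp in complex III.

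**Figure D1:**
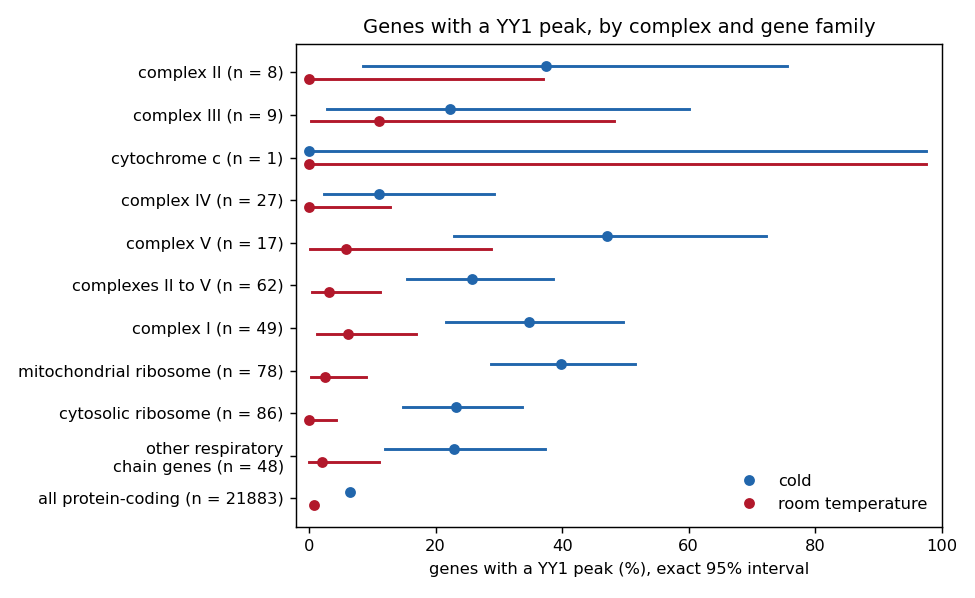
Share of genes with a YY1 peak (x axis, percent) for each complex, for 4 other gene lists and for all protein-coding genes, after cold (blue) and at room temperature (red). Points are shares and bars exact 95% intervals over genes. After cold, complex V lies at 47.1%, complex IV at 11.1% and all protein-coding genes at 6.43%, and the intervals of complexes V and IV overlap.

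By role within complexes the counts were small, and no test was made between roles. In complex II the peaks lay at 3 of the 4 subunit genes, Sdhb, Sdhc and Sdhd, and at 0 of the 4 assembly factor genes Sdhaf1 to Sdhaf4, with overlapping intervals of 19.4 to 99.4% and 0 to 60.2%. The subunit gene without a peak was Sdha, which encodes the flavoprotein that oxidizes succinate. In complex IV they lay at 1 of 17 subunit genes (5.88%, 0.149 to 28.7), Cox8a, a share near the 6.43% of all genes. They also lay at 2 of 10 genes for assembly or supercomplex factors (20%, 2.52 to 55.6), Cox10 and Cox20, and these intervals overlap. The 7 tissue-restricted subunit genes of complex IV, Cox4i2, Cox6a2, Cox6b2, Cox7a1, Cox7b2, Cox8b and Cox8c, had no peak. The interval of 0 of 7 reaches 41%, so it includes the share of all genes. Cox7a1 and Cox8b are known as genes high in brown and beige fat. Pooled over the complexes, 14 of 48 subunit genes had a peak (29.2%, 17 to 44.1). Of the assembly or supercomplex factor genes 2 of 14 did (14.3%, 1.78 to 42.8), and these intervals overlap. The 14 factor genes are all of complexes II and IV, since the symbol rule leaves out factors with other names, such as Lyrm7 and Surf1. All complex V members are subunit genes. Among subunit genes outside complex V, 6 of 31 had a peak (19.4%, 7.45 to 37.5), so the pooled subunit share depends on complex V. In complex V, parts were grouped after the values were seen. Peaks lay at 3 of 5 genes of the F1 part, which joins the catalytic head and the central stalk. They also lay at 3 of 4 genes of the peripheral stalk, 1 of 3 of the c ring and 1 of the 5 other membrane subunits.

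Complex III held the strongest peak of the 62 genes. It lay 323 bp upstream of the annotated start of Uqcrh, the gene of the hinge protein that helps cytochrome c1 bind cytochrome c (chromosome 4, 116075077 to 116075582). At the summit 20 fragments were counted in the room temperature library (exact 95% Poisson interval 12.2 to 30.9) and 79 in the cold library (62.5 to 98.5), so the intervals do not overlap. Fragments were recovered from the authors' fold and p, and these intervals cover counting error only. The ratio of cold to room temperature was 3.95 (2.39 to 6.81), near the median of 3.31 over the 154 intervals in both lists with a low background (quartiles 2.63 and 4.18). In the cold list it ranked 22 of 1259. The summit lay 124 bp inside Lrrc41, a gene for a ubiquitin ligase adaptor whose start lies 199 bp away on the other strand, so the peak is nearer to the Lrrc41 start. The other complex III peak lay 142 bp inside Uqcrc1, which encodes a core subunit (chromosome 9, 108936621 to 108937101), with 19 fragments after cold (11.4 to 29.7) and no room temperature entry. The 7 genes without a peak in either list were Cyc1, Uqcr10, Uqcr11, Uqcrb, Uqcrc2, Uqcrfs1 and Uqcrq. They include the genes of the nuclear-encoded subunits that carry electron-transferring groups, the Rieske protein (Uqcrfs1) and cytochrome c1 (Cyc1).

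Complex II peaks were listed after cold only. Sdhb, the gene of the iron-sulfur subunit, carried 34 fragments (23.5 to 47.5) at a summit 203 bp inside the gene (chromosome 4, 140961313 to 140961678). Sdhc and Sdhd encode the membrane anchor subunits. Sdhc carried 18 fragments (10.7 to 28.4) at a summit 116 bp inside the gene (chromosome 1, 171150270 to 171150659). Sdhd carried 9 fragments (4.12 to 17.1), the lowest of the 16 genes (chromosome 9, 50603646 to 50604012). The summit lay 81 bp inside Sdhd and 133 bp upstream of the start of Timm8b, a gene for a chaperone of mitochondrial import, and the starts of these genes are 52 bp apart on opposite strands. The interval of Sdhd lies below that of Sdhb, and the interval of Sdhc overlaps both. The missing room temperature entries are not measured zeros, since no entry of that list has under 6 fragments and unlisted sites have no value.

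Complex IV peaks were also listed after cold only, and the stronger of them lay at assembly genes. Cox20, a gene for a chaperone of the mitochondrially encoded subunit COX2, carried 43 fragments (31.1 to 57.9; chromosome 1, 178318323 to 178319359), rank 105 in the cold list. That interval had a weaker second summit of 18 fragments (10.7 to 28.4), and at 1037 bp it was the widest of the 16 genes. The second summit lay 659 bp upstream of the start in the promoter table. The gene table starts Cox20 further upstream, so both summits lay inside the gene, the second 399 bp and the stronger 951 bp from its nearer end. Cox10, which encodes the farnesyltransferase that makes heme for complex IV, carried 34 fragments (23.5 to 47.5; chromosome 11, 64079233 to 64079585). Cox8a, a small structural subunit gene, carried 27 fragments (17.8 to 39.3; chromosome 19, 7217301 to 7217702). These 3 intervals overlap. No peak lay at Cox4i1, Cox5a, Cox5b, Cox6a1, Cox6b1, Cox6c, Cox7a2, Cox7b or Cox7c, the other widely expressed subunit genes, nor at Cox11, Cox14, Cox15, Cox16, Cox17, Cox18, Cox19 or Cox7a2l.

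Complex V had the most peaks but modest ones, from 11 to 27 fragments with a median of 18 over its 8 genes. In the F1 part, Atp5a1, the gene of the alpha subunit, carried 27 fragments (17.8 to 39.3; chromosome 18, 77773906 to 77774251). The summit lay 300 bp inside Atp5a1 and 183 bp from an end of Haus1. Atp5b, which encodes the catalytic beta subunit, carried 11 (5.49 to 19.7; chromosome 10, 128083311 to 128083563), at rank 1238 close to the bottom of the cold list. Atp5e, the gene of the small epsilon subunit, was in both lists (chromosome 2, 174463686 to 174464073). The room temperature library gave 11 fragments (5.49 to 19.7) and the cold library 15 (8.4 to 24.7). Its intervals overlap, and its ratio of 1.36 (0.585 to 3.28) was the lowest of the 154 intervals in both lists. With 1.36 against 3.95, the ratios of Atp5e and Uqcrh have intervals that overlap between 2.39 and 3.28, and the difference between these genes was not tested. The F1 genes Atp5c1 and Atp5d had no peak.

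In the peripheral stalk, which holds the head still, Atp5o carried 27 fragments (17.8 to 39.3; chromosome 16, 91931360 to 91931690), Atp5pb 23 (14.6 to 34.5; chromosome 3, 105959132 to 105959424) and Atp5j 12 (6.2 to 21; chromosome 16, 84834936 to 84835420). Atp5h, the remaining stalk gene, had none. The Atp5j summit lay 33 bp downstream of an annotated start of Gabpa, which is 148 bp from a start of Atp5j on the other strand. Gabpa encodes the DNA-binding subunit of GABP, a regulator of respiratory chain genes. The Atp5pb summit lay 22 bp upstream of its start and 213 bp upstream of that of Wdr77, a gene for a methylosome subunit on the other strand. Of the 3 genes that encode the identical c subunit of the rotor, Atp5g2 carried 16 fragments (9.15 to 26; chromosome 15, 102670684 to 102671079), and Atp5g1 and Atp5g3 had no peak. Atp5j2, the gene of a membrane subunit, carried 20 fragments (12.2 to 30.9; chromosome 5, 145191356 to 145191611). Atp5k, Atp5l, Atp5md and Atp5mpl, genes of other membrane subunits, had none.

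**Figure D2:**
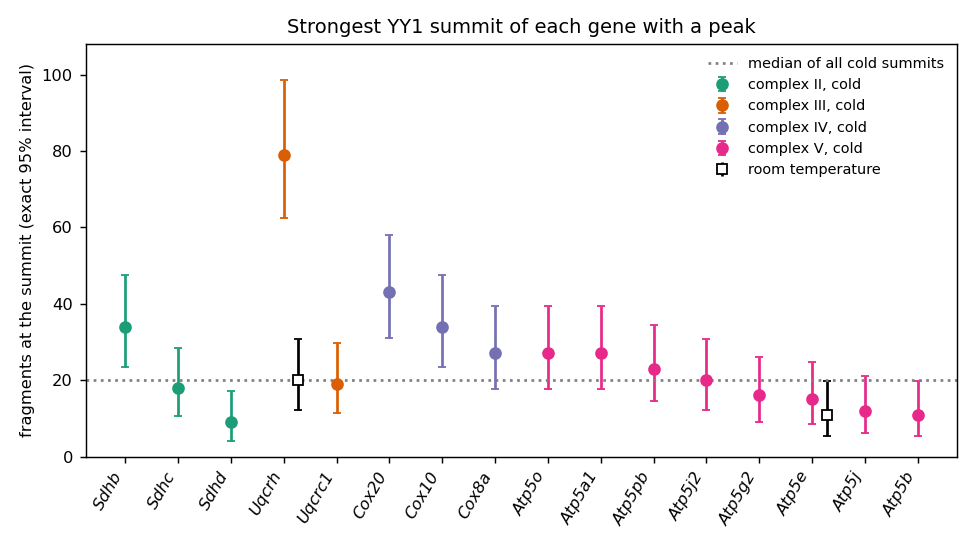
Fragments at the strongest summit (y axis) of each of the 16 genes with a cold peak, coloured by complex, with open squares for the 2 genes listed at room temperature. Bars are exact 95% Poisson intervals and the dotted line is the median of all cold summits, 20 fragments. Uqcrh stands highest at 79, Cox20 follows at 43, and the 8 complex V genes lie between 11 and 27.

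In strength these peaks were like the rest of the cold list. The strongest summit per gene had a median of 21.5 fragments over the 16 genes and of 21 over all 1406 genes with a cold peak. Of the 17 cold summits at the 16 genes, 8 lay above the median of all cold summits (20 fragments), 1 at it and 8 below. The authors' fold enrichment had a median of 11.5 at these 17 summits and of 10.5 over the whole cold list. Backgrounds were low, at 0.663 to 1.99 fragments. Of the 17 summits, 6 also reached another protein-coding gene (35.3%), beside 24.3% of all cold summits that reached a gene.

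The peaks sat close to transcription starts. For the 14 genes with a peak and an entry in the promoter table, the nearest summit lay between 323 bp upstream and 203 bp downstream of an annotated start, 13 of them within 250 bp. For all 1168 such genes, 71.1% had a summit within 250 bp. The summit lay downstream of the start in 10 of the 14 genes, beside 65% of all. The median distance in either direction was 128 bp in both sets. No gene lay near the limit of the 1 kb rule: among the 46 genes without a cold peak, the nearest summit was 5.13 kb away, at Cox5a, and 7.5 kb away at Atp5c1. For 32 of the 46 it was over 100 kb away.

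Set against the sequences shown above, the motif was found under the peak where the promoter window reached the summit. The summit lay within the 300-base window in 5 of the 14 genes, Cox10, Cox20, Atp5j, Atp5j2 and Atp5pb, and all 5 windows held AANATGGC. Of all protein-coding promoter windows with a cold summit inside, 73.9% held it, against 6.37% of all windows. In 9 genes the summit lay outside the window, upstream at Uqcrh and downstream at the others, so the letters under these summits were not searched in the own promoter. The window of the neighbour Timm8b reaches the Sdhd summit and holds no match. Of these 9 windows, that of Atp5b held the motif. The centre of the motif was 16 bp from the summit at Cox10, 20 bp at Atp5j2, 23 bp at Atp5pb and 36 bp at Cox20, then 97 bp at Atp5j and 175 bp at Atp5b. All 6 matches lay inside the peak interval. The Atp5pb promoter is given in full up to its motif, because peak, motif and start coincide there. It covers chr3:105959248-105959513 of GRCm38.p6 on the minus strand, with the motif in capitals across the start.
Atp5pb promoter: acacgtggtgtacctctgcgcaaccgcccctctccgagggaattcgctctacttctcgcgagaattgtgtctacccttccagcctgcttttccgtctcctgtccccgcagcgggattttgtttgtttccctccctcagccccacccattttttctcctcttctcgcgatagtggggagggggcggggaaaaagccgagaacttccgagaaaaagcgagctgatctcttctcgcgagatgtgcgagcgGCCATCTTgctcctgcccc
By complex, the motif was in 4 of 15 promoter-matched genes of complex V, 3 of 20 of complex IV, 1 of 7 of complex II and 0 of 5 of complex III. Among genes with a peak it was in 6 of 14 (42.9%), beside 45.5% of all genes with a cold peak, and among genes without one in 2 of 34 (5.88%), beside 4.74%. The contrast was narrower with the shorter ATGGCG, which overlaps AANATGGC. It was in 5 of 14 genes with a peak (35.7%, beside 46.8%) and in 7 of 34 without one (20.6%, beside 9.93%).

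**Figure D3:**
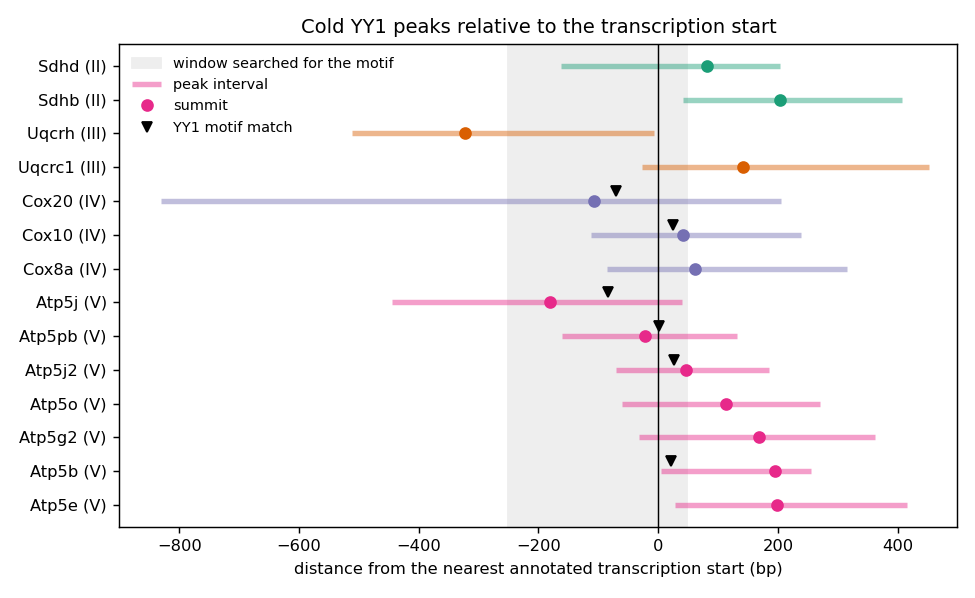
Distance in bp from the nearest annotated transcription start (x axis, downstream to the right) for the 14 genes with a cold peak and a promoter entry. Dots are the strongest summit of each gene, pale bars peak intervals, triangles YY1 motif matches and the grey band the searched window. All dots but that of Uqcrh lie within 250 bp of the start (the weaker Cox20 summit is not drawn), and the 5 dots in the band each have a motif match beside them.

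Other genes of the pathway, and ribosomal protein genes outside it, gave shares of the same order. Of 49 complex I genes 17 had a cold peak (34.7%, 21.7 to 49.6) and 3 a room temperature peak, Ndufb5, Ndufa13 and Ndufs6. A cold peak was also listed for 31 of 78 genes of the mitochondrial ribosome (39.7%, 28.8 to 51.5) and 20 of 86 of the cytosolic ribosome (23.3%, 14.8 to 33.6). All 3 intervals overlap that of complexes II to V, and no test was made between the lists. At room temperature 2 mitochondrial ribosome genes, Mrpl47 and Mrpl36, and 0 cytosolic ribosome genes had a peak. The lists are not independent, since some summits count for genes of more than 1 list. Ndufb5 and Mrpl47 shared their summit in each library (84 fragments after cold, 20 at room temperature). Ndufs6 and Mrpl36 shared their room temperature summit (18 fragments). From a list of 48 genes for assembly factors, ubiquinone synthesis, electron transfer flavoprotein and carriers, 11 had a cold peak (22.9%, 12 to 37.3) and 1 a room temperature peak. That gene was Oxa1l, the insertase that places mitochondrially made subunits of the complexes into the inner membrane. It went from 16 fragments (9.15 to 26) to 65 (50.2 to 82.8). The list was chosen by hand and is not complete. It leaves out Uqcc2, a complex III assembly gene with a peak in both libraries. After cold alone, Coq9 of ubiquinone synthesis carried 49 fragments, Fmc1, an ATP synthase assembly factor gene, 35, Lyrm7, a gene for a chaperone of the Rieske protein, 29, and Surf1, a complex IV assembly gene, 26. Atpif1, which encodes the inhibitor of the ATP synthase, carried 18, and the others of this list were Atpaf2, Cmc2, Coa3, Coq5 and Pdss2, with 10 to 24.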

How the data were processed

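YY1 peaks were deposited as 1 list per library, so they were called per sample. The tools were MACS2, BWA, SAMtools, DESeq2 and deepTools on mm10, per the submitters' processing notes. Versions, settings and controls are not given there. Each entry holds the authors' score, a linear fold (ratio) over local background, −log10 p and −log10 q values and a summit, as deposited. The score was not used. The fragments at a summit (pileup) were recovered as the whole number that satisfies fold = (pileup + 1) / (background + 1) and the Poisson p, within 0.0002 on the −log10 scale. As a stand-in for depth, the smallest recovered background was divided by the narrowest peak width. This was 1.05 times as high in the cold library as in the other. It tracks depth only if control and scaling, which are not given, were alike in both. Genes and promoters came from RefSeq tables of GRCm38.p6, the assembly behind mm10. Coordinates are 1-based. Shares have exact Clopper-Pearson intervals and pileup ratios exact binomial ones. No p-value was computed, since each condition has 1 library. The scripts were tested on simulated data. Every member with a peak is named, and 1 neighbouring gene is not reported here; from the cytosolic ribosome list the S6 kinase genes and Rps19bp1 were left out. The genes, lists and rules were chosen with earlier results of these data known. Python 3.11.15, pandas 2.3.3, SciPy 1.17.1 and matplotlib 3.10.9 were used. Alternatives covered the window, gene ends, nearest gene, peak overlap of at least 1 bp, threshold, list length, gene roles, depth scaling and motif.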

Additional observations from a re-analysis of the deposited data

How the results depend on the processing

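No paired analysis was possible because there is 1 library per condition, which also leaves none to omit. Alternatives gave 59 values. Counts were judged by a factor of 1.5 from the count first reported, whatever its interval, and other values by the interval first reported. By this rule 54 values stayed and 5 moved. Several of the 54 could not have moved, as leaving out assembly factors or tissue-restricted genes removes none from complexes III and V. Cycs, without a peak, could not lose one either. The 54 are therefore no measure of stability. With each summit counted only for its nearest protein-coding gene end, complex III had 1 gene with a cold peak and the room temperature list had 1 member, since Uqcrh goes to Lrrc41; Atp5a1 and Atp5j also dropped out after cold, which left 13. With only the 165 strongest cold entries, 2 members had a peak, beside 0.905% of all genes, and none of them was of complex V. Without assembly factors complex IV had 1. The longer motif AAGATGGCG was in 6.25% of the promoters of these genes and the shorter ATGGCG, which overlaps both others, in 25%; among all genes the shares were 2.14% and 12.4%. Windows of 500 bp and 3 kb, gene ends alone and interval overlap each kept all 16 genes, and a −log10 q of at least 3 left 15, without Atp5b. The ratio of the authors' folds was 5.2 at Uqcrh and 1.17 at Atp5e, within the intervals of the pileup ratios.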

Other observations

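The gene table also holds 15 pseudogenes whose symbols follow the same naming rule, and 0 of them had a summit inside or within 1 kb of an end in either library. The share over all pseudogenes was not computed, so this count is no contrast with the protein-coding genes.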
